A study of Pyrus pyrifolia with 6 samples.

Results

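The genes described here are those whose product is a part of the photosynthetic apparatus: the antenna proteins that bind chlorophyll a and b, the subunits of photosystem I and photosystem II, plastocyanin, ferredoxin--NADP reductase, the oxygen-evolving enhancer proteins, and Rubisco (ribulose bisphosphate carboxylase) with its activase. They were found by these words in the product name of the protein-coding genes of the deposited table. The rule uses no expression value, although earlier results of these data were known when it was chosen. This gave 87 genes, out of 34996 protein-coding genes and 38969 genes in all. By product name, 28 encode antenna proteins, 18 photosystem II and its oxygen-evolving complex, 19 photosystem I, 5 plastocyanin or ferredoxin--NADP reductase, 12 Rubisco small subunits or Rubisco activases, and 5 assembly and repair factors. No member has the name of a plastid-encoded subunit, so that the core proteins encoded in the plastid are not covered. The members lie on 76 scaffolds of the assembly behind the table. The sources used here do not name its build.

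Photosynthesis starts with light capture by antenna proteins in the thylakoid membrane of the chloroplast. Photosystem II then takes electrons from water, plastocyanin carries them to photosystem I, and ferredoxin--NADP reductase passes them on to NADP, while Rubisco fixes carbon dioxide in the stroma. Fruit flesh holds plastids that receive little light and that usually lose chlorophyll as the fruit ripens, and the nuclear genes of the apparatus are under light, sugar and developmental control in plants.

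RNA was sequenced from watercore pulp and from healthy pulp of pear (*Pyrus pyrifolia*), with 3 libraries per group. Watercore is a disorder in which the flesh becomes translucent and soaked with liquid. Both groups came from the same cultivar, named Qiurong in the labels, and were harvested at 120 days, and no agent was applied to either. The labels name skin as the organ and also speak of pulp, and the methods of the study name pulp, another cultivar name, another sampling day and another extraction, which could not be settled from the table. How fruits and trees were divided among the libraries is not stated in the labels, and p-values measure the spread between these libraries.

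A watercore library held 14431337 to 15290688 counts and a healthy library 14382020 to 14871188, with a count above 0 for 27133 to 27293 genes in watercore libraries and 24757 to 25105 genes in healthy libraries. Across tested genes, log2 CPM of 2 libraries correlated at 0.981 to 0.982 within watercore pulp, 0.978 to 0.982 within healthy pulp and 0.849 to 0.87 between the groups. Of 29 genes that mark epidermis and cuticle, 12 had no count in any library and 26 had under 30 counts in all, with a summed level of 4.08 to 4.67 CPM in watercore libraries, against 1.16 to 1.62 CPM in healthy libraries. The 26 seed markers (storage globulins, albumins and oleosins) summed to 1678 to 1838 CPM in watercore libraries and 163 to 213 CPM in healthy libraries, and 5 of the 10 tested were called higher and 0 lower by edgeR (7 higher and 0 lower at an adjusted p under 0.05 alone). The 12 vascular markers summed to 165 to 178 CPM in watercore libraries and 136 to 156 CPM in healthy libraries, and 2 of the 6 tested were called higher and 1 lower. The part of these other cell types in the results below was not tested. In a bulk sample, fewer cells of a type and less RNA per cell cannot be told apart.

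Most members had few counts in either kind of pulp. The sources used here do not say how reads shared by near-identical copies were counted, so few counts need not mean little transcription. Of the 87 members, 7 had no count in any library, 45 had under 30 counts over all 6 libraries together, and 42 had a count in all 6 libraries. Members with at least 1 count numbered 66, 64 and 66 in watercore libraries, against 57, 53 and 56 in healthy libraries. The watercore libraries all listed more members than the healthy ones, as they did over the whole table. The filter on low counts left 32 members for the test across all genes, and the 55 that were left out summed to 7.75 to 10.8 CPM in a library, where CPM is counts scaled to a common library size of 1e6. A member with low counts passed the filter more easily where it was high in one group, so that the tested members do not stand for all 87.

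Among the tested members, more fell than rose in watercore pulp, and the genes that moved were mostly of low abundance. A gene was called at a log2 fold change (watercore over healthy) of at least 1 in either direction and an adjusted p under 0.05, from the quasi-likelihood test of edgeR with Benjamini-Hochberg adjustment over all genes tested. The error given with a log2 fold change is its standard error. Of the 32, 9 were called lower and 4 higher, and 19 were not called. Over the 21200 genes tested, 7.54% were called lower and 17.6% higher, so that the share of members called lower, 28.1%, lay above that of all genes and the share called higher, 12.5%, lay below it. The median log2 fold change was -0.41 over the tested members and 0.00 over all genes. All watercore libraries lay below all healthy libraries for 14 members, all lay above for 9, and the groups overlapped for 9, where 33.8% of all genes tested lay wholly below and 35.5% wholly above. At an adjusted p under 0.05 with no minimum fold change, 14 members were lower and 7 higher. The corresponding shares over all genes were 30.4% lower and 32.3% higher. In the whole description, which also holds protein and domain names, the words matched 182 genes, of which 17 were called higher and 9 lower. Whether the added genes belong to photosynthesis was not examined. The number of these that were tested is not given here, so their calls cannot be set against the shares over all genes. The wider match added no lower call to the 9 of the members.

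Gene length and abundance both moved with these counts. Members are short: their median length in the table is 983 bases and that of the tested members 1048 bases, against 1797 bases over all tested genes. When all tested genes were divided into 5 classes of length, 20 of the 32 members fell in the shortest class, of 100 to 1115 bases, in which 13.6% of genes were called lower and 16.7% higher with a median log2 fold change of -0.37. Of the 20 members in that class 6 were called lower and 2 higher, and with offsets that remove the trend with gene length 8 of all members were called lower and 5 higher. Over all genes, those offsets gave 1297 called lower and 3590 higher. The part of gene length in the counts was not tested further. In the deposited FPKM (fragments per kilobase of gene, scaled to library size), the means of the 13 called members were under 10, with 8.63 the highest. The exception in substance is LOC103956843, whose listed length is 5.04 times its span: its mean is 3.27 FPKM as deposited and 16.5 FPKM with the span as its length. Among genes tested with a mean FPKM of at least 10, 14.5% were called, and 0 of the 10 members at that level were, or 1 of 11 with the span as length (by edgeR at an adjusted p under 0.05 alone, 4 of the 10 were lower and 3 higher). Below that level 24.1% of genes were called higher and 8.81% lower, and of the 22 members there 4 were called higher and 9 lower.

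**Figure D1:**
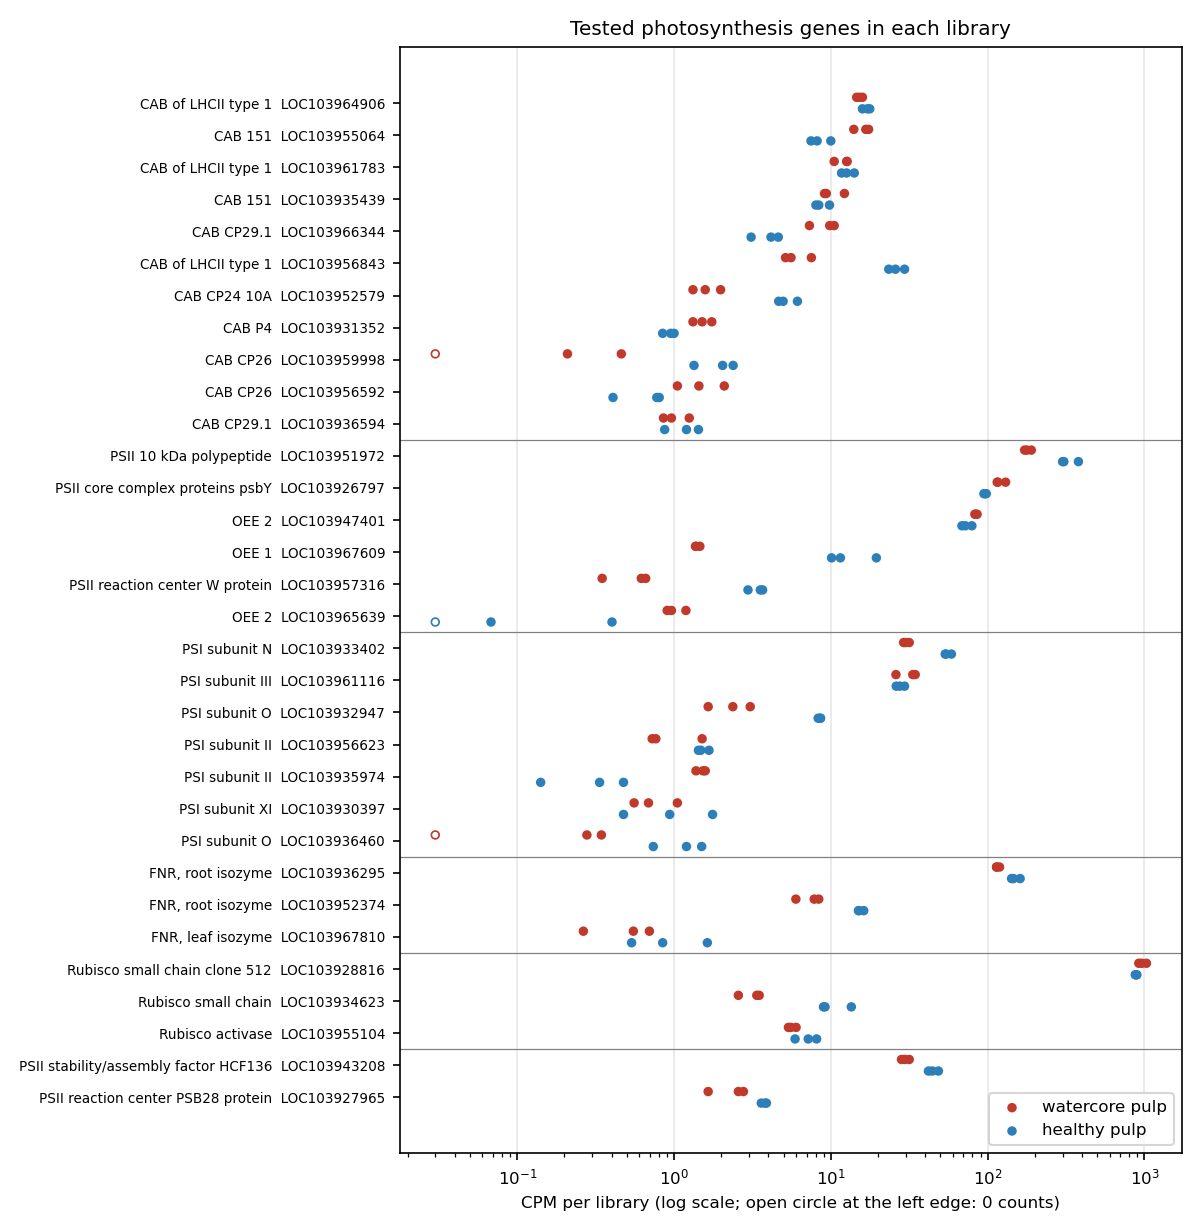
Level of each of the 32 tested members in each library, in CPM on a log axis, grouped by role from antenna proteins (top) to assembly factors (bottom), with watercore pulp in red above healthy pulp in blue and open circles at the left edge for libraries with 0 counts. The levels span from under 1 CPM to the 920.0 to 1029 CPM of a Rubisco small chain gene in watercore libraries, and none of the 13 called genes is above the 29.5 CPM of LOC103956843 in a healthy library.

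On a scale per length, a single Rubisco small subunit gene stood above the rest. LOC103928816 had a mean of 1111 FPKM over the 6 libraries, which is rank 32 of 38969 genes and 3.17-fold above the next member. That next member was the photosystem II 10 kDa polypeptide gene LOC103951972 (350.2 FPKM), followed by LOC103926797 for psbY (251 FPKM), the root isozyme of ferredoxin--NADP reductase LOC103936295 (77.9 FPKM) and the oxygen-evolving enhancer protein 2 gene LOC103947401 (64.9 FPKM). These 5 genes made up 83.6% to 88.3% of the summed CPM of all members in a library. Only 10 members reached 10 FPKM, and 60 were under 1 FPKM. The antenna proteins, which are among the most abundant transcripts of a leaf, reached 15.2 FPKM in LOC103964906 and 16.5 FPKM in LOC103956843 with the span as its length.

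Summed over all members, watercore libraries had 1758, 1648 and 1615 CPM, against 1785, 1794 and 1889 CPM in healthy libraries. All watercore sums lay below all healthy sums, with means of 1673 ± 74.9 and 1823 ± 57.4 CPM (SD, n = 3 each), a log2 ratio of -0.12. Without LOC103928816 the sums were 729, 686 and 695 CPM in watercore libraries and 891, 922 and 1005 CPM in healthy libraries, a log2 ratio of -0.42. The share of LOC103928816 in the summed CPM was 58.5%, 58.4% and 57% in watercore libraries, against 50.1%, 48.6% and 46.8% in healthy libraries. The members together thus took 0.161% to 0.176% of a watercore library and 0.179% to 0.189% of a healthy library.

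**Figure D2:**
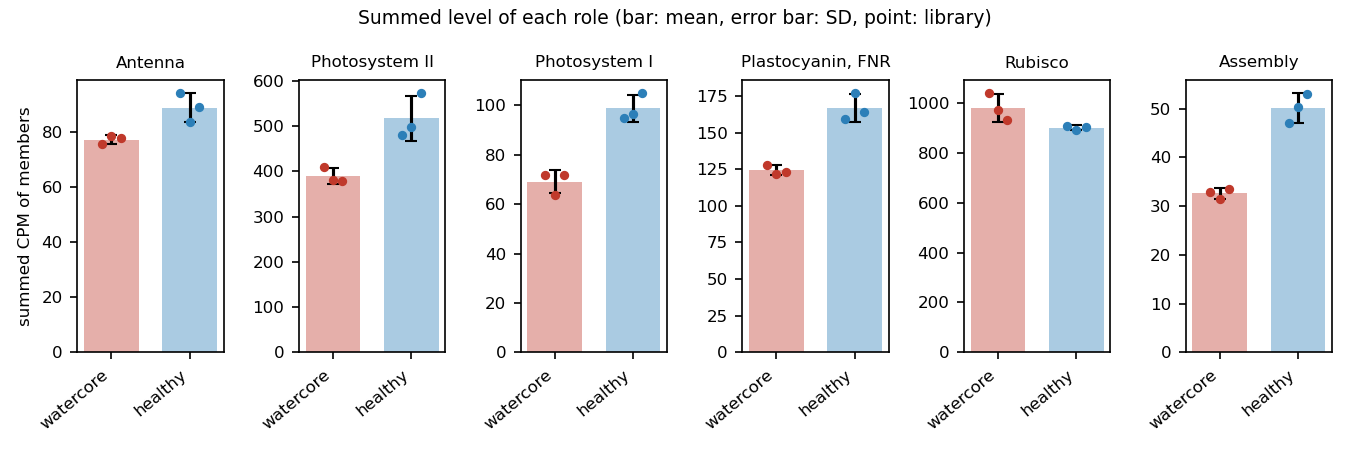
Summed CPM of the members of each of 6 roles (panels, each with its own axis from 0), in watercore pulp (red) left of healthy pulp (blue), where bars are means, error bars SD and points the 3 libraries of a group. The watercore points lie below all healthy points for 5 roles, and above them for Rubisco, with 981 ± 55.6 CPM in watercore pulp against 901 ± 10.4 CPM in healthy pulp.

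The antenna proteins were the largest role and split between genes that rose and genes that fell. Of the 28 members 11 were tested, 3 were called lower and 2 higher, and the role summed to 77.3 ± 1.53 CPM in watercore pulp and 89.0 ± 5.32 CPM in healthy pulp (SD, n = 3 each). LHCII, the main antenna of photosystem II, is named in 9 members, of which 3 were tested. LOC103956843, annotated as LHCII type 1-like (scaffold NW_008988184.1, 66818 to 67788, plus strand), had 5.14, 7.51 and 5.57 CPM in watercore libraries, against 25.8, 23.4 and 29.5 CPM in healthy libraries. The groups did not overlap, and the gene was 4.32-fold lower in watercore pulp, with a log2 fold change of -2.11 ± 0.16 (SE) and an edgeR adjusted p of 8.4e-06. Its length in the table, 4894 bases, is 5.04 times its span on the scaffold, 971 bases, so that its deposited FPKM, 1.24 in watercore pulp and 5.3 in healthy pulp, is not comparable with that of other genes. The description of LOC103956843 holds no UniProt protein name and no Pfam domain, whereas the other tested antenna genes have both. Its place among the antenna genes rests on the product name alone.

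The other tested genes with LHCII in their product name did not move with it. Genes without that word in their product name, such as those of protein 151 below, are not in this comparison. LOC103964906, which overlaps LOC103964923 on the opposite strand, had 15.2, 15.9 and 14.6 CPM in watercore libraries and 17.7, 17.1 and 15.9 CPM in healthy libraries. The groups touched at 15.9 CPM. The log2 fold change of LOC103964906 was -0.15 ± 0.10 (edgeR adjusted p = 0.215). LOC103961783, whose UniProt name is LHCII type III, had -0.10 ± 0.13 (edgeR adjusted p = 0.526). With offsets that remove the trend with gene length, both of these values turned positive (0.15 and 0.12) and remained uncalled. LOC103956843 held 16.7%, 20.8% and 17% of the CPM of the 3 tested genes named LHCII in watercore libraries, against 44.8%, 44.8% and 50.9% in healthy libraries.

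CP24, CP26 and CP29 are the minor antenna proteins that link LHCII to the core of photosystem II. Of the genes for CP24, LOC103952579 fell, with 1.98, 1.32 and 1.58 CPM in watercore libraries, against 6.12, 4.96 and 4.65 CPM in healthy libraries. This is 3.21-fold lower, with no overlap (log2 fold change -1.68 ± 0.25, edgeR adjusted p = 0.000364), and the gene overlaps 3 genes on the opposite strand, whose reads cannot be told apart without knowing whether strand was counted. The other CP24 gene, LOC103967973, was not tested and had 0, 4 and 3 counts in watercore libraries and 0 in all healthy libraries, so that the groups overlapped. With the healthy group at a floor of 3 counts the ratio is 2.32, which leaves out the counting error of so few counts. For CP29.1, LOC103966344 rose to 10.5, 7.3 and 9.83 CPM in watercore libraries, against 4.15, 4.62 and 3.1 CPM in healthy libraries. Watercore levels were all above healthy ones (log2 fold change 1.22 ± 0.21, edgeR adjusted p = 0.00103), while the other CP29.1 gene tested, LOC103936594, had a log2 fold change of -0.19 ± 0.34 (edgeR adjusted p = 0.652).

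CP26 was split between a copy that fell and a copy that rose. LOC103959998 had 0.461, 0.209 and 0 CPM in watercore libraries, against 2.38, 1.34 and 2.04 CPM in healthy libraries. LOC103956592 had 1.05, 2.09 and 1.44 CPM in watercore libraries, against 0.408, 0.804 and 0.776 CPM in healthy libraries. Neither gene overlapped between groups, and their log2 fold changes were -3.04 ± 0.65 (edgeR adjusted p = 0.00309) for LOC103959998 and 1.19 ± 0.41 (edgeR adjusted p = 0.0295) for LOC103956592. Without watercore library 1 the value of LOC103959998 was -4.10. The call of LOC103956592 did not hold in DESeq2 (1.22, adjusted p = 0.0887), nor without watercore library 2 (0.92), watercore library 3 (1.23, adjusted p = 0.0634) or healthy library 1 (0.95).

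The remaining antenna genes tested were not called. Chlorophyll a-b binding protein 151 is listed as a pair of genes, of which LOC103955064 had 14, 16.7 and 17.4 CPM in watercore libraries, against 9.99, 8.17 and 7.47 CPM in healthy libraries. Watercore libraries lay above all healthy ones, and its log2 fold change of 0.91 ± 0.15 (edgeR adjusted p = 0.000657) fell short of the minimum of 1, which it passed without healthy library 1 (1.04) and with gene length offsets (1.21). Its partner LOC103935439 overlapped between groups, with 12.2, 9.11 and 9.35 CPM in watercore libraries and 8.02, 8.37 and 9.8 CPM in healthy libraries (log2 fold change 0.23 ± 0.16, edgeR adjusted p = 0.245). Of the 5 genes assigned by product name to the antenna of photosystem I, LOC103931352 (protein P4) was tested, with a log2 fold change of 0.70 ± 0.30 (edgeR adjusted p = 0.0675). LOC103929687, placed there by its UniProt name only, had 2 counts over all libraries and is not among the 5. The 5 summed to 2.24, 3.48 and 2.95 CPM in watercore libraries and 2.92, 1.67 and 1.69 CPM in healthy libraries, which overlapped.

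Photosystem II summed to 389.5 ± 16.9 CPM in watercore pulp and 517 ± 49.2 CPM in healthy pulp (SD, n = 3 each), and a single gene gave the largest share of this sum. The 10 kDa polypeptide (PsbR) sits on the lumenal side of photosystem II and helps to hold the oxygen-evolving complex. Its gene LOC103951972 (NW_008988126.1, 54991 to 57037) had 189.7, 178 and 172 CPM in watercore libraries, against 300.5, 306 and 379 CPM in healthy libraries. The groups were well apart, and the log2 fold change of -0.87 ± 0.09 (edgeR adjusted p = 5.3e-05) stayed under the minimum of 1, so that the gene was not called. With gene length offsets the value was -0.47 (edgeR adjusted p = 0.00393). Of the 18 photosystem II members 6 were tested, with 2 called lower and 1 higher.

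The oxygen-evolving enhancer proteins sit at the manganese cluster that splits water, and their genes differed. Enhancer protein 1 (PsbO) had the lowest fold change of the 32 tested members: LOC103967609 (NW_008988383.1, 123803 to 125513) had 1.38, 1.46 and 1.37 CPM in watercore libraries, against 10.1, 11.5 and 19.5 CPM in healthy libraries. Watercore libraries were close to each other and below all healthy ones, of which library 3 was the highest. The gene was 9.69-fold lower in watercore pulp (log2 fold change -3.28 ± 0.29, edgeR adjusted p = 1.7e-05). The abundant enhancer protein 2 (PsbP) gene LOC103947401 had 84.1, 82.8 and 85.6 CPM in watercore libraries, against 68.5, 79.3 and 72 CPM in healthy libraries. The groups did not overlap, with a small log2 fold change of 0.20 ± 0.07 (edgeR adjusted p = 0.0265) that was not called. A rare copy of the same product, LOC103965639, rose to 1.19, 0.904 and 0.962 CPM in watercore libraries, against 0.068, 0.402 and 0 CPM in healthy libraries. This is a log2 fold change of 2.61 ± 0.72 (edgeR adjusted p = 0.0116), or 4.58 without healthy library 2, and the copy held 1.08% to 1.39% of the CPM of the pair in watercore libraries. Summed over its 7 genes, the group had 87.6, 86.4 and 88.5 CPM in watercore libraries and 79.5, 92.8 and 92.6 CPM in healthy libraries, which overlapped.

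The other photosystem II genes tested were those of small subunits. The W protein (PsbW) stabilises the complexes of photosystem II with its antenna, and its gene LOC103957316 had 0.659, 0.348 and 0.618 CPM in watercore libraries, against 3.67, 3.55 and 2.96 CPM in healthy libraries. It was 6.17-fold lower with no overlap (log2 fold change -2.63 ± 0.32, edgeR adjusted p = 0.000118). The gene of psbY, LOC103926797, had 130.1, 115 and 116 CPM in watercore libraries, against 96.2, 94.6 and 97.9 CPM in healthy libraries. Every watercore value was above every healthy one, with a log2 fold change of 0.32 ± 0.06 (edgeR adjusted p = 0.00189) that was not called. The 4 genes of the 5 kDa protein, a small subunit, were all left untested, and summed to 0.487 to 1.17 CPM in watercore libraries and 0.282 to 0.737 CPM in healthy libraries.

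Photosystem I summed to 69.1 ± 4.77 CPM in watercore pulp and 98.8 ± 5.31 CPM in healthy pulp (SD, n = 3 each). Of its 19 members 7 were tested, of which 2 were called lower and 1 higher. Subunit N (PsaN), on the lumenal side where plastocyanin docks, had the highest mean FPKM of this role over all libraries: LOC103933402 had 31.6, 29.1 and 30 CPM in watercore libraries, against 53.6, 54.3 and 58.7 CPM in healthy libraries. The groups were well apart, and the log2 fold change of -0.88 ± 0.07 (edgeR adjusted p = 1.1e-05) was not called, under the minimum of 1. With gene length offsets the value was -0.49 (edgeR adjusted p = 0.000484). Subunit III (PsaF), which helps to bind plastocyanin, is encoded by LOC103961116, which had 33.3, 26 and 34.5 CPM in watercore libraries and 27.5, 26.1 and 29.5 CPM in healthy libraries. Those groups overlapped (log2 fold change 0.18 ± 0.12, edgeR adjusted p = 0.211), and in watercore pulp the 2 genes were close per length, at 37.6 FPKM for subunit N and 35.6 FPKM for subunit III.

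Subunit O (PsaO), which takes part in the contact of photosystem I with LHCII, fell in both of its tested genes. LOC103932947 had 2.37, 3.06 and 1.65 CPM in watercore libraries, against 8.56, 8.3 and 8.6 CPM in healthy libraries. LOC103936460 had 0, 0.278 and 0.344 CPM in watercore libraries, against 1.5, 0.737 and 1.2 CPM in healthy libraries. Neither overlapped between groups, and the log2 fold changes were -1.84 ± 0.23 (edgeR adjusted p = 0.000147) for LOC103932947 and -2.43 ± 0.68 (edgeR adjusted p = 0.0123) for LOC103936460. Each of these genes also overlaps a tRNA gene on the opposite strand. Summed over its 4 genes, subunit O had 2.57, 3.48 and 2.41 CPM in watercore libraries and 10.4, 10.6 and 11.8 CPM in healthy libraries.

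Subunit II (PsaD), where ferredoxin docks on the stromal side, is encoded by a pair of tested genes of like level. LOC103935974 rose to 1.38, 1.53 and 1.58 CPM in watercore libraries, against 0.476, 0.335 and 0.141 CPM in healthy libraries (log2 fold change 2.20 ± 0.43, edgeR adjusted p = 0.00176). LOC103956623 had 0.725, 0.765 and 1.51 CPM in watercore libraries and 1.43, 1.67 and 1.48 CPM in healthy libraries. Only watercore library 3 reached the healthy range, and the log2 fold change of -0.61 ± 0.36 (edgeR adjusted p = 0.173) was not called, but was called without that library (-1.03, adjusted p = 0.0467). Subunit XI (PsaL), LOC103930397, had a log2 fold change of -0.45 ± 0.51 (edgeR adjusted p = 0.46), which turned to 0.12 without healthy library 3. This gene overlaps LOC108865799 on the same strand.

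Ferredoxin--NADP reductase was present mainly as its root isozyme, the form that in plants supplies reduced ferredoxin in non-green plastids. LOC103936295 had 119, 114 and 114 CPM in watercore libraries, against 142, 161 and 146 CPM in healthy libraries. Watercore values were all the lower ones, with a log2 fold change of -0.38 ± 0.06 (edgeR adjusted p = 0.000709) that was not called. The second root isozyme gene, LOC103952374, had 8.37, 5.98 and 7.83 CPM in watercore libraries, against 15, 15.1 and 16.2 CPM in healthy libraries. It was called lower by a narrow margin (log2 fold change -1.06 ± 0.15, edgeR adjusted p = 0.000238), and lost the call with a minimum of 10 counts per library (-1), with gene length offsets (-0.99) and without watercore library 2 (-0.92), in each case by the fold change and not by the p. The leaf isozyme, the form that works in photosynthesis, summed over its 2 genes to 0.395, 0.974 and 0.618 CPM in watercore libraries, against 1.63, 0.536 and 0.846 CPM in healthy libraries, and these overlapped. On the scale per length, the first root isozyme gene had 77.9 FPKM over all libraries and the tested leaf isozyme gene LOC103967810 0.512 FPKM. The only gene named plastocyanin, LOC103927331, had 8, 6 and 6 counts in watercore libraries and 2, 2 and 4 counts in healthy libraries, and was not tested.

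Rubisco is built from a plastid-encoded large subunit and the nuclear small subunits counted here. LOC103928816 (NW_008988462.1, 376496 to 377902), annotated as small chain clone 512-like, had 1029, 962 and 920.0 CPM in watercore libraries, against 894, 873 and 884 CPM in healthy libraries. All watercore libraries lay above all healthy ones, but the log2 fold change was 0.14 ± 0.06 (edgeR adjusted p = 0.0648) and was not called. The adjusted p was 0.0252 in DESeq2, and in edgeR 0.041 with RLE scaling and 0.0124 with at least 10 counts in every library. In edgeR it was 0.142 with no filter, 0.066 with the replicate block and 0.0498 to 0.199 with a library left out. With gene length offsets the value was 0.51 (edgeR adjusted p = 4.8e-05), still under the minimum of 1. The second small chain gene with counts, LOC103934623, fell to 3.49, 2.57 and 3.37 CPM in watercore libraries, against 9.18, 8.97 and 13.5 CPM in healthy libraries. This was 3.34-fold lower with no overlap (log2 fold change -1.74 ± 0.22, edgeR adjusted p = 0.000154). A pair of small chain genes 3094 bases apart on NW_008988094.1, LOC103948503 and LOC103948502, had 0 counts in every library, so that of 5 small chain genes a single gene carried nearly the whole of the 974 ± 55 CPM in watercore pulp and 894 ± 11 CPM in healthy pulp (SD, n = 3 each).

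Rubisco activase, which frees the active site of inhibitory sugar phosphates, was scarce. Its only tested gene, LOC103955104, had 6, 5.56 and 5.36 CPM in watercore libraries and 5.91, 7.17 and 8.11 CPM in healthy libraries (log2 fold change -0.32 ± 0.18, edgeR adjusted p = 0.138), and the groups overlapped. A pair of genes for activase 1 were seen in watercore pulp alone at this depth: LOC103941976 with 6, 9 and 8 counts and LOC103939553 with 4, 5 and 5 counts, against 0 counts in all 3 healthy libraries. With the healthy group set to 3 counts, the floor for a group at 0, these are at least 7.62-fold and at least 4.64-fold higher. Summed over 7 genes, activase had 7.64, 7.1 and 6.46 CPM in watercore libraries and 6.19, 7.84 and 8.11 CPM in healthy libraries, which overlapped.

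Of the 5 genes for assembly and repair factors 2 were tested and neither was called. HCF136, needed to assemble the core of photosystem II, is encoded by LOC103943208, which had 29.6, 28.2 and 31.6 CPM in watercore libraries, against 41.9, 44.3 and 48.5 CPM in healthy libraries. All watercore libraries lay below (log2 fold change -0.59 ± 0.08, edgeR adjusted p = 0.000277). The PSB28 gene LOC103927965 had 2.77, 2.57 and 1.65 CPM in watercore libraries, against 3.81, 3.88 and 3.6 CPM in healthy libraries (-0.69 ± 0.26, edgeR adjusted p = 0.0416). That p was 0.107 in DESeq2, 0.0526 with the replicate block, 0.0501 with no filter, 0.357 with gene length offsets (-0.29) and 0.0451 to 0.129 with a library left out. The untested gene of PSB27-H1 (LOC103947836) averaged 0.09 CPM in watercore pulp and 0.0923 CPM in healthy pulp. The 5 genes of this role summed to 32.6 ± 1.13 CPM in watercore pulp and 50.1 ± 3.07 CPM in healthy pulp (SD, n = 3 each).

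**Figure D3:**
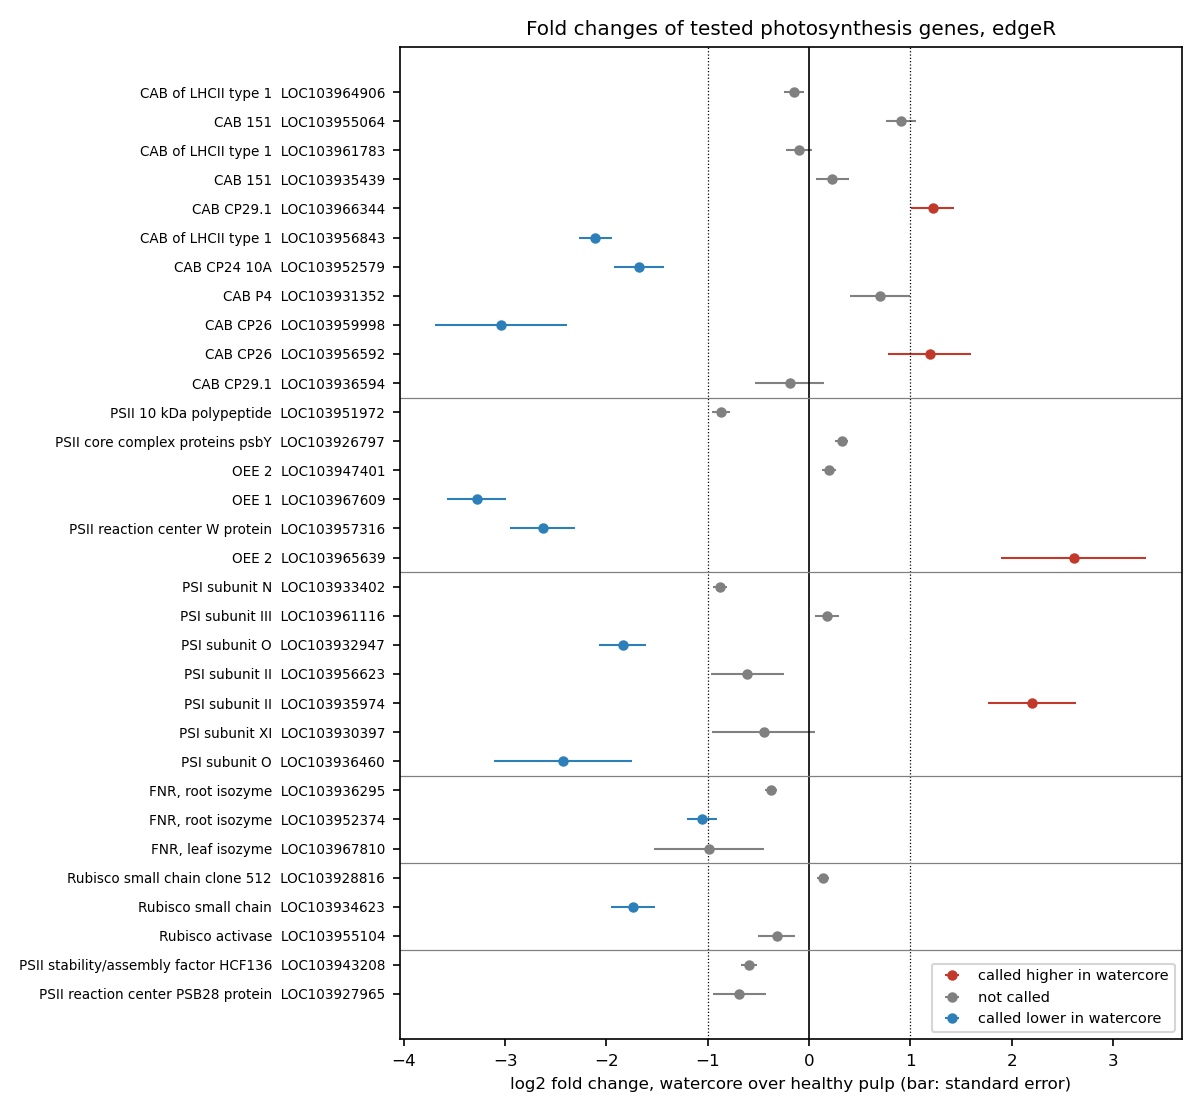
Log2 fold change of watercore over healthy pulp for the 32 tested members in the edgeR fit, with bars for the standard error, dotted lines at the minimum fold change and colours for the call, in the same order of roles from top to bottom. Of the genes, 9 lie beyond the left line in blue, from -1.06 to -3.28, and 4 beyond the right line in red, from 1.19 to 2.61, and antenna proteins, photosystem II and photosystem I each hold genes of both kinds.

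Other members at few counts also lay on one side. LOC103958702, a further gene for protein P4 of the photosystem I antenna, had 10, 15 and 11 counts in watercore libraries and 0 counts in all healthy libraries, which by the same floor is at least 11.9-fold higher. A gene for subunit psaK, LOC103952396, had 1, 0 and 0 counts in watercore libraries, against 4, 16 and 2 counts in healthy libraries, a ratio of 22.1 higher in healthy pulp with an exact 95% interval of 3.58 to 914 for counting error. Healthy library 2 gave most of those counts. LOC103966631, for chlorophyll a-b binding protein 6 of the photosystem I antenna, had 1, 4 and 1 counts in watercore libraries, against 22, 10 and 10 in healthy libraries, with no overlap. With no filter on low counts, the edgeR fit covered 80 members, and of those the filter had left out it called 3 higher (LOC103958702, LOC103941976 and LOC103939553) and 4 lower (LOC103952396, LOC103966631, the subunit O gene LOC103963837 and the Psb28 gene LOC103959875). Over all genes, that fit called 4751 higher and 1892 lower. The share called among all genes that the filter had left out is not given here, so these calls cannot be set against it.

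Copies of one product shared the reads in different proportions in the groups. Of the 8 product names with 2 or more tested genes, CP26 and subunit II of photosystem I shifted most. The CP26 gene LOC103956592 gave 69.6%, 90.9% and 100% of the CPM of its pair in watercore libraries, against 14.6%, 37.5% and 27.5% in healthy libraries. Pooled over libraries, this was 67 of 77 counts in watercore pulp (87%, exact 95% interval 77.4 to 93.6%) and 29 of 113 counts in healthy pulp (25.7%, 17.9 to 34.7%). The subunit II gene LOC103935974 gave 65.6%, 66.7% and 51.1% in watercore libraries, against 25%, 16.7% and 8.7% in healthy libraries. In both pairs every watercore library had a larger share of the named copy than every healthy library. The intervals cover counting error only, the shares were not tested, and the sources used here do not say how reads were divided between near-identical copies.

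**Figure D4:**
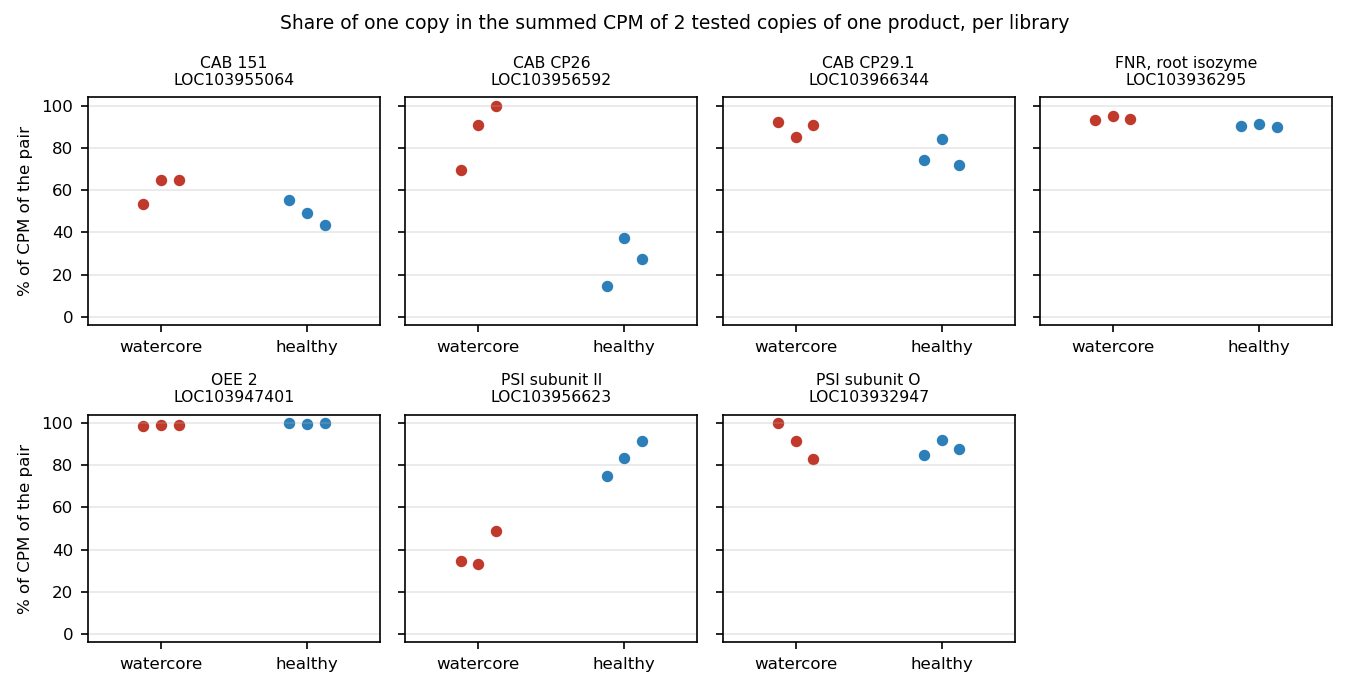
Percent of the summed CPM of 2 tested genes of the same product that comes from the gene named above each panel, in the 3 watercore libraries (red, left) and the 3 healthy libraries (blue, right). CP26 and subunit II of photosystem I separate most, with LOC103956592 at 69.6% to 100% in watercore libraries against 14.6% to 37.5% in healthy libraries, whereas the pairs of chlorophyll a-b binding protein 151 and of subunit O overlap.

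Genes that work beside the members were followed in 7 lists by product name, with 302 genes, of which 188 were tested. By edgeR 19 of these were called higher and 21 lower, 10.1% and 11.2% of those tested, where 17.6% and 7.54% of all genes were, with a median log2 fold change of -0.29. For the list of electron transport and ATP synthase 3 of 27 tested genes were called higher and 2 lower, with a median of -0.60. The genes of this list are short, with a median length of 922 bases, and the shortest length class of all tested genes had a median of -0.37. The 3 calls to higher became 0 with at least 10 counts in every library and 6 with no filter, and the 2 to lower became 1 with gene length offsets. Ferredoxin, the electron carrier after photosystem I, was most abundant as the root form LOC103939427, with 201, 169.6 and 191 CPM in watercore libraries, against 241, 224 and 224 CPM in healthy libraries. All watercore libraries lay below (log2 fold change -0.29 ± 0.07, edgeR adjusted p = 0.00635), and the gene was not called. The leaf form LOC103946316 was called lower, with 4.28, 3.55 and 3.99 CPM in watercore libraries, against 12.6, 12.3 and 14.8 CPM in healthy libraries (-1.74 ± 0.15, edgeR adjusted p = 1.8e-05). A gene for a subunit of the photosynthetic NDH complex, which cycles electrons around photosystem I, LOC103931316 (subcomplex B 4), had 67, 36 and 44 counts in watercore libraries and 0 in all healthy libraries, which by the same floor is at least 48.7-fold higher.

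In the Calvin cycle 2 of 21 tested genes were called higher and 2 lower, with a median of -0.21. The most abundant, fructose-bisphosphate aldolase 3 (LOC103948139), had 638, 614 and 623 CPM in watercore libraries, against 859, 869 and 874 CPM in healthy libraries. The groups were apart, with a log2 fold change of -0.47 ± 0.05 (edgeR adjusted p = 4.2e-05) that was not called. Glyceraldehyde-3-phosphate dehydrogenase B (LOC103952908), which uses the NADPH of the light reactions, rose to 17.5, 12.5 and 13.2 CPM in watercore libraries, against 1.5, 0.469 and 0.917 CPM in healthy libraries (3.90 ± 0.32, edgeR adjusted p = 1.3e-05). A triosephosphate isomerase gene (LOC103930335) was called lower (-1.14 ± 0.43, edgeR adjusted p = 0.0415) with overlapping groups, since healthy library 1 had 21.8 CPM and the other healthy libraries 8.24 and 6.06 CPM, against 4.88, 5.29 and 6.18 CPM in watercore libraries. The 2 calls to lower became 0 with gene length offsets and 1 with the replicate block, without healthy library 1 or without any 1 of the watercore libraries, and the 2 to higher became 0 with at least 10 counts in every library and 4 in DESeq2. In photorespiration, which recovers the carbon of the oxygenase reaction of Rubisco, 2 of 19 tested genes were called higher and 2 lower, with a median of -0.10. Serine--glyoxylate aminotransferase (LOC103934581) rose to 9.75, 9.6 and 6.87 CPM in watercore libraries, against 1.97, 1.21 and 1.41 CPM in healthy libraries (2.51 ± 0.25, edgeR adjusted p = 4.0e-05). The photorespiration calls to lower became 0 with gene length offsets and with at least 10 counts in every library, and 1 in DESeq2, without watercore library 3 and without any 1 of the healthy libraries.

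In chlorophyll synthesis 1 of 36 tested genes was called higher and 3 lower, with a median of -0.38. The share called lower, 8.33%, was near the 7.54% of all genes, and the counts were 1 and 1 with at least 10 counts in every library and 2 and 2 with gene length offsets. Geranylgeranyl diphosphate reductase (LOC103931434), which makes the phytyl tail of chlorophyll, fell to 0.329, 0.696 and 0.275 CPM in watercore libraries, against 3.67, 4.49 and 3.88 CPM in healthy libraries (-3.19 ± 0.36, edgeR adjusted p = 7.7e-05). Subunit ChlH of magnesium chelatase (LOC103941422), the entry to the chlorophyll branch, rose to 2.83, 2.02 and 3.02 CPM in watercore libraries, against 0.612, 0.469 and 0.494 CPM in healthy libraries (2.30 ± 0.32, edgeR adjusted p = 0.000264). In breakdown 1 of 9 tested genes was called higher and 3 lower, with a median of -0.64. Pheophytinase, which removes the phytyl tail, fell in 2 of its 3 genes, and the gene PPH had 3.82, 3.62 and 3.02 CPM in watercore libraries, against 30.7, 23.4 and 24.9 CPM in healthy libraries (-2.91 ± 0.15, edgeR adjusted p = 1.2e-06). Its watercore levels were far below the healthy ones, while pheophorbide a oxygenase (PAO), which opens the ring, had 186, 189.9 and 197 CPM in watercore libraries and 179, 176 and 152 CPM in healthy libraries (0.17 ± 0.07, edgeR adjusted p = 0.0561). The single call to higher, STAY-GREEN-like LOC103952867, rested on overlapping groups, with 2.77, 0.765 and 1.92 CPM in watercore libraries and 0.612, 0.871 and 0.141 CPM in healthy libraries (1.73 ± 0.61, edgeR adjusted p = 0.0349). The call was lost with the replicate block, with at least 10 counts in every library, and without watercore library 1, watercore library 3, healthy library 1 or healthy library 3, whereas the 3 calls to lower held their number in each of these.

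Among genes of thylakoid assembly and protection 7 of 47 tested were called higher and 5 lower, with a median of -0.12. Early light-induced proteins are relatives of the antenna proteins that accumulate under stress, and they made up 5 of the 7. LOC103933158 had 38.6, 38.9 and 31.1 CPM in watercore libraries, against 4.49, 5.96 and 5.43 CPM in healthy libraries (2.77 ± 0.14, edgeR adjusted p = 1.0e-06). LOC103935876, named after its values were seen, had 160.0, 159 and 129.5 CPM in watercore libraries, against 28.1, 25.4 and 19 CPM in healthy libraries (2.63 ± 0.14, edgeR adjusted p = 1.3e-06). The 5 tested genes of this family, of 14 in the table, were all called higher, and the family summed to 205, 206 and 166 CPM in watercore libraries, against 33.9, 33.5 and 25.9 CPM in healthy libraries, while 6 of the 14 had no count. The thylakoid lumenal 17.4 kDa protein (LOC103943396) moved the other way, with 12, 12.1 and 14.5 CPM in watercore libraries, against 37.7, 39.5 and 40.4 CPM in healthy libraries (-1.61 ± 0.10, edgeR adjusted p = 2.6e-06).

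The transcription factors HY5 and GATA and the plastid sigma factors act on the nuclear or plastid genes of photosynthesis, and of 29 tested genes in this list 3 were called higher and 4 lower, with a median of 0.05. A pair of genes named HY5-like, a factor that promotes light-regulated genes, moved in opposite directions. LOC103944715 rose to 27.1, 25.7 and 24.4 CPM in watercore libraries, against 3.19, 1.61 and 3.81 CPM in healthy libraries (3.17 ± 0.24, edgeR adjusted p = 7.2e-06). LOC103946681 fell to 0.725, 1.39 and 0.962 CPM in watercore libraries, against 4.28, 5.22 and 5.71 CPM in healthy libraries (-2.30 ± 0.29, edgeR adjusted p = 0.000154). Summed over its 3 genes, HY5 had 56.9, 56.1 and 50.0 CPM in watercore libraries, against 37.2, 41.9 and 37 CPM in healthy libraries.

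**Figure D5:**
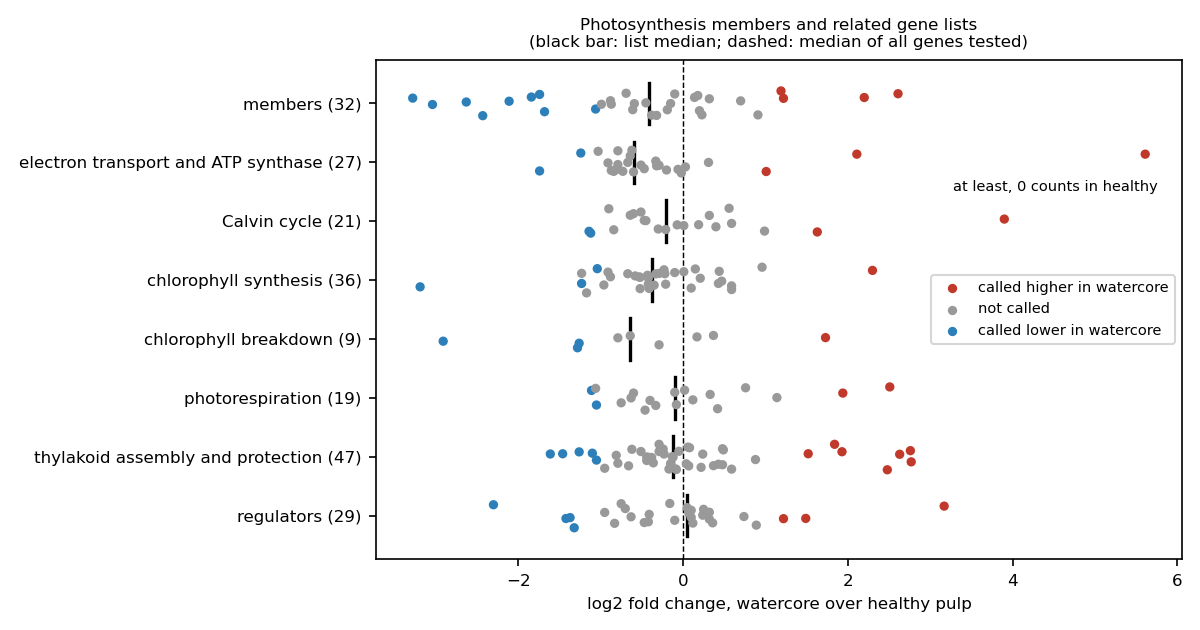
Log2 fold changes of watercore over healthy pulp for the tested members and the tested genes of 7 related lists (number tested in parentheses), with calls in colour, list medians as black bars and the median of all genes as a dashed line. List medians run from -0.64 for chlorophyll breakdown to 0.05 for the regulators, against -0.41 for the members, and the rightmost point is the lower bound of a gene with 0 counts in healthy libraries.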

How the data were processed

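RNA was sequenced from watercore and healthy pear pulp, 3 libraries per group. HISAT2 is named in the submitters' processing notes, and the methods state that adapter, poly-N and low-quality reads were discarded. The methods name *Pyrus betulifolia* as the mapping genome, whereas the table lists NCBI gene identifiers and scaffolds, and which assembly these belong to, the counting tool and its use of strand were not given in the sources read. The authors deposited raw counts per gene and library and FPKM values, which are counts per kilobase of gene length, scaled to library size. The table also holds a comparison by the authors from DESeq2, a scaled signal per group, a log2 fold change, a p-value and its adjusted value, which was not used. Every column of values per library was used.

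The counts of all 38969 genes were fitted with edgeR 4.0.16 (R 4.3.3), with TMM factors, filterByExpr and the quasi-likelihood test. Calls needed a log2 fold change of 1 or more in either direction with adjusted p under 0.05. CPM values use library sizes counted after the filter and scaled by the TMM factors, and the raw totals before that were 14382020 to 15290688 counts. Ratios against 0 counts use a floor of 3 counts over a group, and intervals are exact (Clopper-Pearson) at 95%, for counting error only. FPKM served only to compare genes, and the value of LOC103956843 by its span was added after seeing the data. Alternatives were DESeq2 1.42.0, RLE and total-count scaling, no filter, gene length offsets, a block for the replicate number, a minimum of 10 counts per library, no minimum fold change, membership by the whole description and each library left out in turn. The scripts were tested on simulated data and used Python 3.11.15, pandas 2.3.3, numpy 2.4.6, scipy 1.17.1 and matplotlib 3.10.9.

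Genes were named by a rule: in each role the 3 tested members of highest mean FPKM, all called members up to 8 (beyond that, the 4 largest changes per direction) and members with over 5000 counts, and from each related list the most abundant tested gene and the largest called change per direction. Other tested members, members named from untested counts, PAO, LOC103935876 and the families within lists were named after their values were seen. The members, lists and tests were chosen with earlier results of these data known. Transporter ATPases and a TCP factor matched by the list patterns were removed before the fit. The planned comparison of promoters and proteins was not made, since no reference sequences were used here.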

Additional observations from a re-analysis of the deposited data

How the results depend on the processing

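Of 407 fold changes of the 32 tested members under an alternative, 394 kept their direction and their side of the threshold, and 13, of 7 members, did not. Directions reversed for 3 uncalled members, LOC103930397 (0.12 without healthy replicate 3, and -0.80 to 0.12 over all libraries left out in turn), and with gene length offsets LOC103961783 (0.12) and LOC103964906 (0.15). The main counts were 4 members higher and 9 lower, with 19 and 21 in the related lists. With no filter on low counts 7 members were called higher and 13 lower, and a minimum of 10 counts in every library left 1 higher and 5 lower (lists: 8 higher). Over all genes, 4751 were called higher and 1892 lower with no filter, and 2205 higher and 1047 lower with that minimum. The main fit called 3730 genes higher and 1599 lower. With no minimum fold change 7 members were higher and 14 lower (lists: 37 higher, 74 lower). Members taken by the whole description numbered 182, with 17 called higher and 9 lower. Higher calls then outnumbered lower ones, as they did over all genes, and the number tested is not given here. DESeq2 called 6 members higher and 12 lower (all genes: 4297 higher, 1605 lower). Leaving out each library in turn gave 3 to 5 members higher and 9 to 12 lower (lists: 16 to 20 higher, 19 to 22 lower). Over all genes this gave 3736 to 4060 higher and 1530 to 1655 lower. Same-numbered libraries did not deviate together (r of 0.0369, 0.00271 and -0.00256), which cannot show whether they shared a tree or a fruit. The replicate block left 4 members higher and 9 lower. The summed CPM of each role kept its direction under both other scalings and with each library left out, and no scaling moved the median of all genes by more than 0.02. Depth limits the 55 untested members, whose differences were mostly not detectable. The causes of these shifts were not tested, beyond the smaller or larger number of genes that a filter admits.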
